A study of Mus musculus with 12 samples.

Results

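The genes described here are 9 transcription factors that mark or direct the newly formed, non-dividing neurons of the cerebral cortex: Tbr1, Fezf2, Bcl11a, Bcl11b, Sox5, Foxp1, Foxp2, Neurod2 and Neurod6. They were taken by name, as the probes of the array whose symbol in the platform annotation is one of these 9. This gave 11 of 21998 probes, with 2 probes each for Bcl11a and Bcl11b and 1 for each other gene. After probes of a gene were averaged, they were 9 of 14418 features (named genes, or single probes without a gene name) that had enough values to test. All 9 were tested, and none of the 132 readings of their 11 probes on 12 arrays was missing or at the ceiling of the scale.

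Excitatory neurons of the cortex are born from dividing progenitors that line the ventricle, and they switch on a set of transcription factors as they leave the cell cycle and migrate outward. Tbr1 is a T-box factor of the first-born neurons and of those that later project to the thalamus. Fezf2, a zinc finger protein, and Bcl11b, also called Ctip2, act in one pathway that specifies neurons projecting to the brainstem and spinal cord, while Sox5 and the Bcl11b relative Bcl11a (Ctip1) shape the identity of deep-layer neurons. Foxp1 and Foxp2 are forkhead factors of cortical and striatal neurons. Neurod2 and Neurod6 are basic helix-loop-helix factors of excitatory neurons, which bind a short DNA motif named the E-box.

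The tissue was the rostral and the caudal part of the neocortex of mouse embryos at E13.5 (days after conception), from the outbred strain MF1 (3 pools) and the inbred strain C57 (3 pools). No mutation, transgene or treatment is named in the labels. A pool held tissue of 3 embryos per the labels, and embryos were matched within litters, but the text does not settle whether the 3 pools of a strain came from different litters. Rostral and caudal RNA of a pool were hybridised against each other on an array with 2 dyes, and again on a second array with the dyes exchanged. Values below are rostral over caudal on the log2 scale, centred on the median of its array and averaged over both arrays of the pool. They are relative to the typical probe: a value of 1 is a doubling in rostral tissue, and a value of 0 is no difference. The sign is the likely one, since the dye used as numerator was inferred. Its basis is that Nr2f1 and Lhx2, known for higher caudal expression, came out below 0 in 6 of 6 pools, and Etv5 and Spry2, targets of the rostral FGF signal, came out above 0 in 6 of 6. Emx2, also known for higher caudal expression, showed no clear side, at 0.091 ± 0.27 (SD, n = 6 pools) with 3 pools below 0. In pieces of whole tissue, a larger share of neurons, or of other cells that hold the RNA, and more RNA of a gene in each cell cannot be told apart. The values are ratios, so the level of these genes, or of any marker of cortex, in either tissue could not be read.

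One pool stood apart from the others of its strain. Across the tested features, the ratios of MF1 pools 1 and 2 had a Spearman correlation of 0.28, while MF1 pool 3 correlated with them at -0.22 and -0.21. The correlation among the C57 pools ran from 0.0079 to 0.22. Features are not independent replicates, so these correlations only describe the pools. Of 10596 features with a value in 6 pools, 41.9% had the same sign in MF1 pools 1 and 2 and the opposite one in MF1 pool 3. The genes on which the direction of the ratios rests were read for 1 sign in all 6 pools, MF1 pool 3 included. Nr2f1 was at -0.89 and Etv5 at 0.48 there, which is therefore no separate check of that pool. Emx2, the gene of known gradient that showed no clear side, did turn. It was at 0.40 and 0.098 in MF1 pools 1 and 2 and at -0.0355 in MF1 pool 3. The mean of each factor that MF1 pool 3 moved by over 1.5 times or set apart in sign is given with and without it.

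Over both strains, 7 of the 9 factors had a mean ratio above 0 and 2 below, and the median of the 9 was 0.27 against 0.0091 for all features tested. Of all features 51.6% had a mean above 0. Bcl11b and Foxp1 had ratios above 0 in 6 of 6 pools. With limma on the pool means, 0 of the 9 factors passed the threshold of 0.05 after Benjamini-Hochberg adjustment over all features, and the lowest adjusted p among them was 0.456, that of Foxp1. The same fit passed 0 of 14418 features, a background of 0%. At an unadjusted p under 0.05, 2 of the 9 were higher rostrally, Foxp1 and Bcl11b, and 0 were lower. The background for these counts was 4.34% of all features higher and 4.64% lower. Being above 0 in 6 of 6 pools, as these 2 factors were, was found for 3.47% of features with 6 pools, and 0 of the 9 were below 0 in 6 of 6, as 2.5% of features were. A list of 9 genes named with earlier results known is too short to read more from these shares than the values of the genes themselves.

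**Figure D1:**
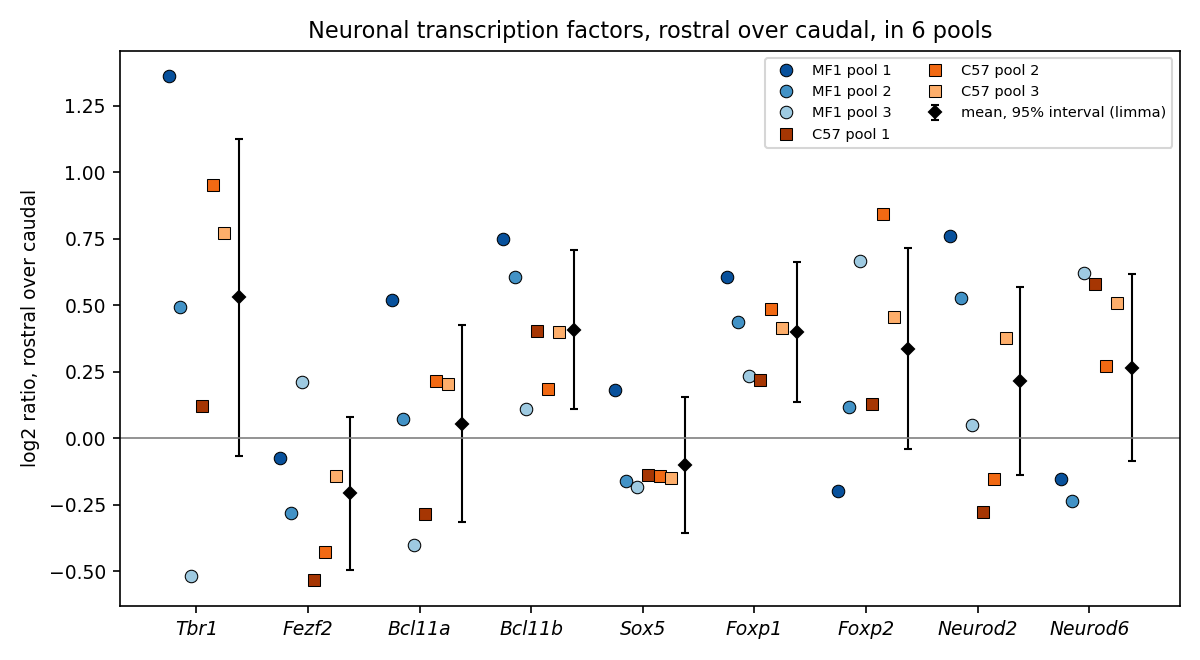
Log2 ratio of rostral over caudal neocortex for each of the 9 factors (vertical axis, 0 means equal) in each of 6 pools; circles are MF1 pools and squares C57 pools, and the diamond with bars is the mean over both strains with its 95% interval from limma. The intervals of Bcl11b and Foxp1 lie above 0, before adjustment for the number of features, and the pool values of Tbr1 are the most spread, between -0.52 and 1.36.

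Foxp1 had the smallest spread of the factors with a ratio above 0 in every pool. Its ratios were 0.605, 0.44 and 0.235 in MF1 pools 1 to 3 and 0.22, 0.49 and 0.41 in C57 pools 1 to 3. All 6 pools were on the rostral side, and the strains overlapped. The mean was 0.40 ± 0.15 (SD, n = 6 pools), a 1.32-fold difference, with a 95% interval of 0.14 to 0.66 (limma, unadjusted p = 0.00892, adjusted p = 0.456). On single arrays 11 of 12 values were above 0, the exception being -0.043 in MF1 pool 3 with rostral RNA in Cy5. Without MF1 pool 3 the fitted mean was 0.45 (limma, adjusted p = 0.438). Foxp1 rested on 1 probe, and without centring of the arrays, where all features had a median of -0.18, it was at 0.21 (limma, unadjusted p = 0.134).

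Bcl11b, the zinc finger factor of neurons that project below the cortex, had ratios of 0.75, 0.61 and 0.11 in MF1 pools 1 to 3. In C57 pools 1 to 3 they were 0.40, 0.18 and 0.40. All lay above 0, lowest in MF1 pool 3, and the strains overlapped. The mean was 0.41 ± 0.24 (SD, n = 6 pools), a 1.33-fold difference, with a 95% interval of 0.11 to 0.71 (limma, unadjusted p = 0.0149, adjusted p = 0.482). Without MF1 pool 3 the fitted mean was 0.50 (limma, adjusted p = 0.411), and without MF1 pool 1 it was 0.34 (limma, unadjusted p = 0.0519). Without centring of the arrays it was 0.22 (limma, unadjusted p = 0.156).

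The positive sign of Bcl11b in every pool held for the mean of its probes, not for either probe. The probe CG_Mm_EXT_3107456_1 gave 1.30, 1.07 and -0.12 in the MF1 pools and 0.63, 0.58 and 0.61 in the C57 pools, a mean of 0.68 ± 0.49 (SD, n = 6). The probe CG_Mm_3000752_1 gave 0.198, 0.14 and 0.34 in the MF1 pools and 0.18, -0.21 and 0.18 in the C57 pools, a mean of 0.14 ± 0.18 (SD, n = 6). Each probe was thus below 0 in a single pool, MF1 pool 3 for one and C57 pool 2 for the other. With the second of these probes alone, the unadjusted p of Bcl11b was 0.256 (limma). The sequence that either probe reads within the transcript was not used here.

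The 250 bases before the transcription start are printed for Bcl11b and Foxp1, the pair of factors above 0 in every pool, from RefSeq on GRCm38.p6, 5′ to 3′ and on the strand of the gene. The capitals mark E-boxes, searched as CANNTG, which reads the same on both strands; overlapping matches were counted. For Foxp1, which had 3 start windows, the one farthest upstream is shown.
Bcl11b (chr12:108003415-108003664, minus strand): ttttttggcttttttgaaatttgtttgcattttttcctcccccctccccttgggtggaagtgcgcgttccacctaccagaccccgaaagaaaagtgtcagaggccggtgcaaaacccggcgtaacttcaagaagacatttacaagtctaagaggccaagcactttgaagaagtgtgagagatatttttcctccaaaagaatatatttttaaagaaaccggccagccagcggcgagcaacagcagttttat
Foxp1 (chr6:99520994-99521243, minus strand): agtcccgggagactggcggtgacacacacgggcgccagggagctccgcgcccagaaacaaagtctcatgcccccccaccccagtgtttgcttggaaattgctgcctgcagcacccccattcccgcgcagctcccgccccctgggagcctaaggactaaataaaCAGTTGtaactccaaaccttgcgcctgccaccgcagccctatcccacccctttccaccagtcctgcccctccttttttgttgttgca
Of all 32851 such windows 66.2% held at least 1 E-box, and 7 of the 10 windows found for 8 of the 9 factors did. Foxp2 had no entry in the table. The window of Bcl11b had 0 E-boxes and this window of Foxp1 had 1, which began 87 bases before the start. A match of letters is a description and not a binding site, and E-boxes were about as common in these windows as in all.

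Tbr1, the T-box factor of first-born and corticothalamic neurons, had both the highest mean ratio and the widest spread of the 9 factors. Its ratios were 1.36, 0.49 and -0.52 in MF1 pools 1 to 3 and 0.12, 0.95 and 0.77 in C57 pools 1 to 3. It was higher rostrally in 5 of 6 pools, and the exception was MF1 pool 3. The mean was 0.53 ± 0.66 (SD, n = 6 pools), a 1.44-fold difference that did not pass (limma, unadjusted p = 0.0732, adjusted p = 0.589), with a 95% interval of -0.066 to 1.13.

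The sign of Tbr1 was the same in both dye orientations. With rostral RNA in Cy3 and in Cy5 it gave 1.71 and 1.02 in MF1 pool 1, and -0.55 and -0.48 in MF1 pool 3. Both arrays of a pool had the same sign in 6 of 6 pools. Without MF1 pool 3 the mean of the other 5 pools was 0.74 ± 0.47 (SD, n = 5), above 0 in 5 of 5, and the fitted mean was 0.77 (limma, unadjusted p = 0.0101, adjusted p = 0.438). Without MF1 pool 1 the fitted mean was 0.30 (limma, unadjusted p = 0.211, adjusted p = 0.858), so the size of the ratio depended on both pools. In the fit without MF1 pool 3 3 of the 9 factors had an unadjusted p under 0.05, Tbr1, Bcl11b and Foxp1, all higher rostrally, against 5.22% of 12960 features higher.

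Fezf2, the zinc finger factor that specifies subcerebral projection neurons, lay on the caudal side in 5 of 6 pools. Its ratios were -0.073, -0.28 and 0.21 in MF1 pools 1 to 3 and -0.53, -0.43 and -0.14 in C57 pools 1 to 3. MF1 pool 3 was again the exception. The mean was -0.21 ± 0.27 (SD, n = 6 pools) and did not pass (limma, adjusted p = 0.644). Without MF1 pool 3 the mean was -0.29 ± 0.19 (SD, n = 5), below 0 in 5 of 5, and did not pass (limma, fitted mean -0.27, adjusted p = 0.498). This differs in sign from Bcl11b, which acts in the same pathway. The sign of Fezf2 depended on the dyes: the mean was -0.45 on the 6 arrays with rostral RNA in Cy3 and 0.034 on the 6 with rostral RNA in Cy5, and both arrays of a pool had the same sign in 2 of 6 pools.

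Sox5, which times the production of deep-layer neurons, had small ratios below 0 in 5 of 6 pools. They were 0.18, -0.16 and -0.18 in MF1 pools 1 to 3 and -0.14, -0.14 and -0.15 in C57 pools 1 to 3. The SD of the C57 pools was 0.0054 (n = 3 pools), but the 2 arrays of each lay much further apart. With rostral RNA in Cy3 and in Cy5 they gave -0.24 and -0.039, -0.23 and -0.055, and -0.23 and -0.072. The small SD is thus not the precision of a pool value. MF1 pool 1 was the sole pool above 0. The mean was -0.099 ± 0.14 (SD, n = 6 pools), and its 95% interval of -0.35 to 0.16 held 0 (limma, adjusted p = 0.809). Without MF1 pool 1 the mean was -0.15 ± 0.017 (SD, n = 5), and this did not pass either (limma, adjusted p = 0.862).

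Bcl11a, the relative of Bcl11b, had a mean ratio of 0.055 ± 0.34 (SD, n = 6 pools) and split by pool. It was at 0.52, 0.073 and -0.40 in MF1 pools 1 to 3 and at -0.28, 0.22 and 0.20 in C57 pools 1 to 3 (limma, adjusted p = 0.93). The fitted mean was 0.17 without MF1 pool 3 and -0.059 without MF1 pool 1 (limma, adjusted p = 0.696 and 0.96). The spread came from 1 probe. The probe CG_Mm_EXT_3114511_1 was lowest in MF1 pool 3, at -0.77, and highest in MF1 pool 1, at 0.92, while CG_Mm_3000774_1 stayed between -0.14 and 0.12. In C57 the first of these followed the dyes, at 0.37, 1.17 and 1.32 with rostral RNA in Cy3 and at -1.23, -0.31 and -0.45 with rostral RNA in Cy5. Its mean over both orientations is therefore the small difference of large, opposite readings in that strain.

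Foxp2, the forkhead factor of deep-layer neurons, had a mean ratio of 0.34 ± 0.39 (SD, n = 6 pools) and was above 0 in 5 of 6 pools. The ratios were -0.197, 0.12 and 0.66 in MF1 pools 1 to 3 and 0.13, 0.84 and 0.46 in C57 pools 1 to 3. The highest MF1 pool was pool 3, in contrast to Foxp1, which was lowest there among the MF1 pools. The mean did not pass (limma, unadjusted p = 0.0735, adjusted p = 0.589), and without MF1 pool 3 the fitted mean was 0.22 (limma, adjusted p = 0.633). In C57 the 2 arrays of a pool disagreed by far more than this mean: pool 1 gave 2.07 with rostral RNA in Cy3 and -1.81 with rostral RNA in Cy5, and pool 2 gave 2.24 and -0.55. C57 pool 3, at 0.48 and 0.43, did not show this. The C57 ratios of Foxp2 in pools 1 and 2 are averages of opposite readings.

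**Figure D2:**
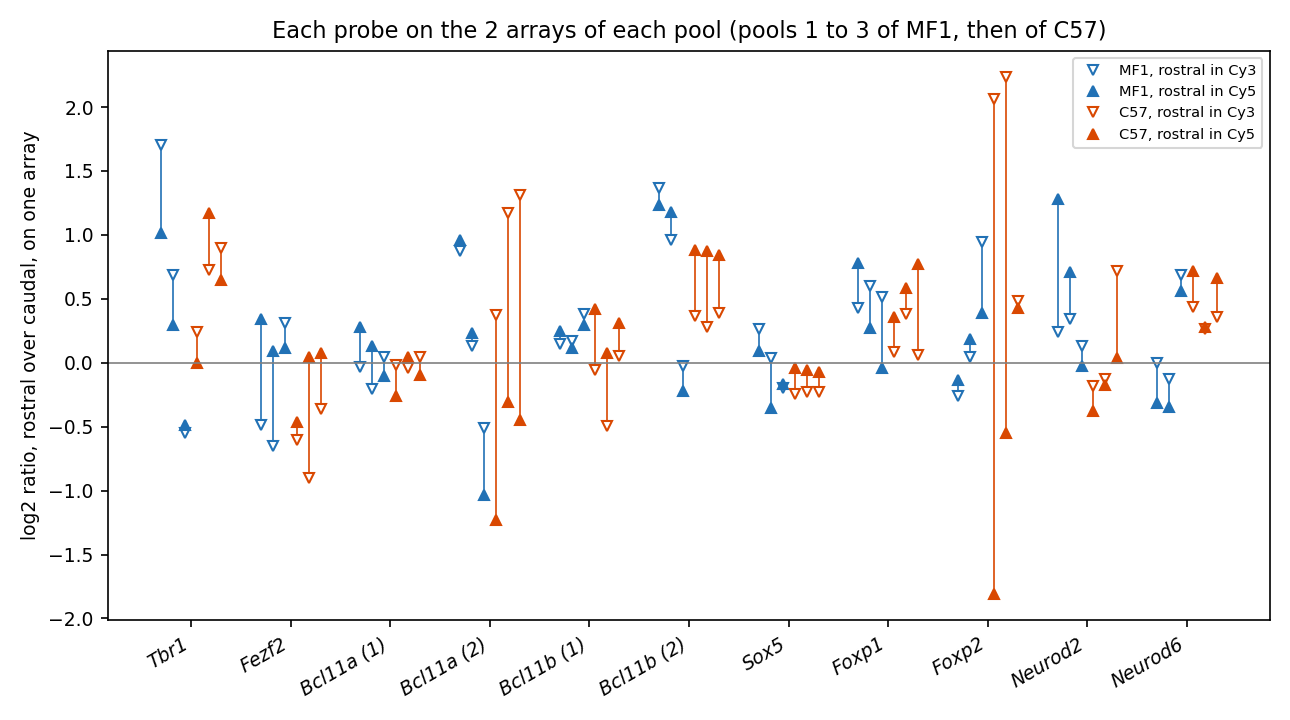
Each of the 11 probes (horizontal axis; numbers in brackets tell the 2 probes of a gene apart, in the order of their identifiers) on the 2 arrays of each of 6 pools, with the log2 ratio of rostral over caudal on the vertical axis. Open triangles have rostral RNA in Cy3 and filled ones in Cy5, and a line joins the arrays of a pool; the long lines are those of Foxp2 in C57 pools 1 and 2 and of the second Bcl11a probe in C57.

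Over the 9 factors and 6 pools, both arrays had the same sign in 39 of 54 cases, 72.2%. Among all features the share within a pool ran from 41.6% in C57 pool 1 to 63.4% in MF1 pool 3. For all features each C57 pool, at most 47.0%, lay below each MF1 pool, at least 52.6%. Tbr1, Bcl11b, Foxp1, Sox5, Neurod2 and Neurod6 had the same sign on both arrays in at least 5 of 6 pools, Foxp2 in 4, and Fezf2 and Bcl11a in 2.

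Neurod2 and Neurod6, the helix-loop-helix factors of excitatory neurons, had mean ratios of like size and unlike patterns. Neurod2 was at 0.76, 0.53 and 0.051 in MF1 pools 1 to 3 and at -0.28, -0.15 and 0.38 in C57 pools 1 to 3. Neurod6 was at -0.155, -0.23 and 0.62 in MF1 pools 1 to 3 and at 0.58, 0.27 and 0.51 in C57 pools 1 to 3. Neurod2 was above 0 in each MF1 pool and Neurod6 in each C57 pool, and each gene had 4 of 6 pools above 0. The means were 0.21 ± 0.41 for Neurod2 and 0.27 ± 0.38 for Neurod6 (SD, n = 6 pools), and neither passed (limma, adjusted p = 0.696 and 0.628). Without MF1 pool 3 the fitted means were 0.31 for Neurod2 and 0.13 for Neurod6 (limma, adjusted p = 0.512 and 0.701). That of Neurod2 was 0.14 without MF1 pool 1 and 0.12 without C57 pool 3 (limma, adjusted p = 0.922 and 0.898).

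The windows of 250 bases before the start of these genes are shown because both proteins are themselves E-box binders, in the same format as above.
Neurod2 (chr11:98329646-98329895, minus strand): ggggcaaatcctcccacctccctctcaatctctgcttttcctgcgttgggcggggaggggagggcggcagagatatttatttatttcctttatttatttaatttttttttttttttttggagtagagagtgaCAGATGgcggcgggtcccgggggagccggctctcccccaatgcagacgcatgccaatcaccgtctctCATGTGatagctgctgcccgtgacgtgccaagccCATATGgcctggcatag
Neurod6 (chr6:55681264-55681513, minus strand): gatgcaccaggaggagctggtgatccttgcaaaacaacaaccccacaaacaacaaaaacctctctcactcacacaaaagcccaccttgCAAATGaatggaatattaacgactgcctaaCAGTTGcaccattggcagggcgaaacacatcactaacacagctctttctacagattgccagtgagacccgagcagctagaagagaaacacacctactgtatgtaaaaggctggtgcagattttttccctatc
That of Neurod2 held 3 E-boxes, which began 118, 51 and 17 bases before the start. That of Neurod6 held 2, which began 162 and 132 bases before it. The data hold no measurement at these positions.

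The 3 pairs of related genes were compared within each pool by the exact two-sided sign-flip permutation test, which with 6 pools cannot give a p below 0.0312. Bcl11b exceeded Bcl11a in 5 of 6 pools, by 0.23, 0.53, 0.51, 0.69 and 0.195, with -0.032 in C57 pool 2. The mean difference was 0.35 ± 0.27 (SD, n = 6; exact p = 0.0625, 0.188 adjusted over the 3 pairs) and did not pass. It was 0.034 on the arrays with rostral RNA in Cy3 and 0.67 on those with rostral RNA in Cy5. With the probe of fewest missing values for each gene it was 0.16 (sign-flip test, exact p = 0.156, 0.469 adjusted). Foxp2 differed from Foxp1 by -0.064 ± 0.46 (SD, n = 6; exact p = 0.781, 0.875 adjusted), with 3 pools on each side. Neurod6 differed from Neurod2 by 0.051 ± 0.73 (SD, n = 6; exact p = 0.875, 0.875 adjusted). That small mean joined differences of -0.92 and -0.76 in MF1 pools 1 and 2 with 0.57 in MF1 pool 3 and 0.86, 0.42 and 0.13 in the C57 pools. The spread of the last 2 differences was several times their mean, so a difference of their size in either direction could not be seen with these pools.

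**Figure D3:**
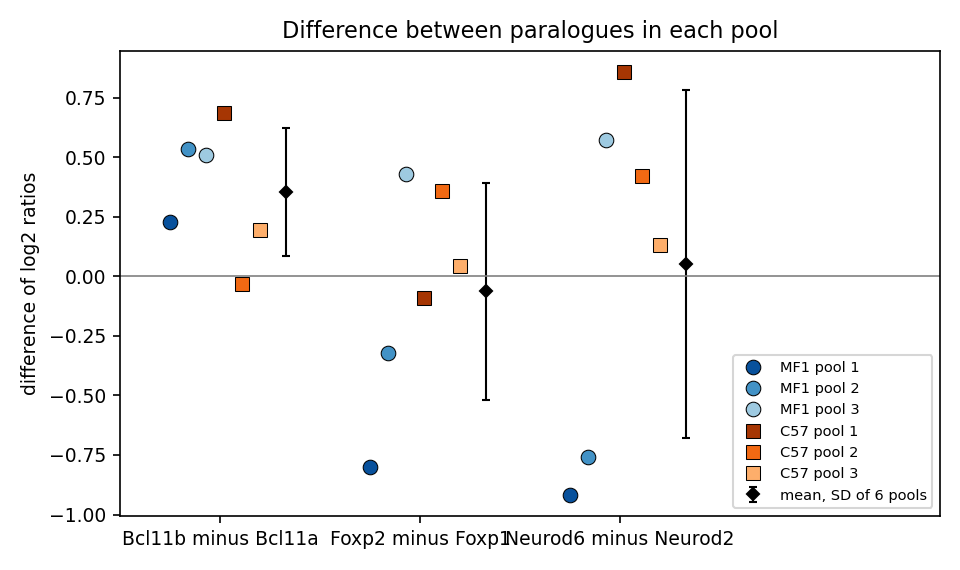
Within-pool difference between the log2 ratios of 2 related factors (vertical axis) for 3 pairs; circles are MF1 pools, squares C57 pools, and the diamond with bars is the mean with the SD of 6 pools. Bcl11b minus Bcl11a lies above 0 in 5 of 6 pools, and Neurod6 minus Neurod2 runs from -0.92 to 0.86.

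MF1 pool 3 turned the sign of 4 of the 9 factors relative to MF1 pools 1 and 2, which compares with 41.9% of all features. Tbr1 and Bcl11a went from above to below 0, and Fezf2 and Neurod6 from below to above. Bcl11b, Foxp1 and Neurod2 kept their sign and were lower in pool 3 than in pools 1 and 2. Foxp2 and Sox5 had unlike signs in pools 1 and 2. Of the 22 measured genes of neuronal structure and maturation, 12 turned in the same sense (54.5%), 6 of them from above to below 0 and 6 from below to above. This was the highest share among the gene lists described below. Of 26 further transcription factors of cortical neurons, 6 turned (23.1%). In the remaining lists the share ran from 14.3% for Cajal-Retzius and subplate genes to 52.9% for ventral and striatal genes. What set MF1 pool 3 apart was not tested.

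**Figure D4:**
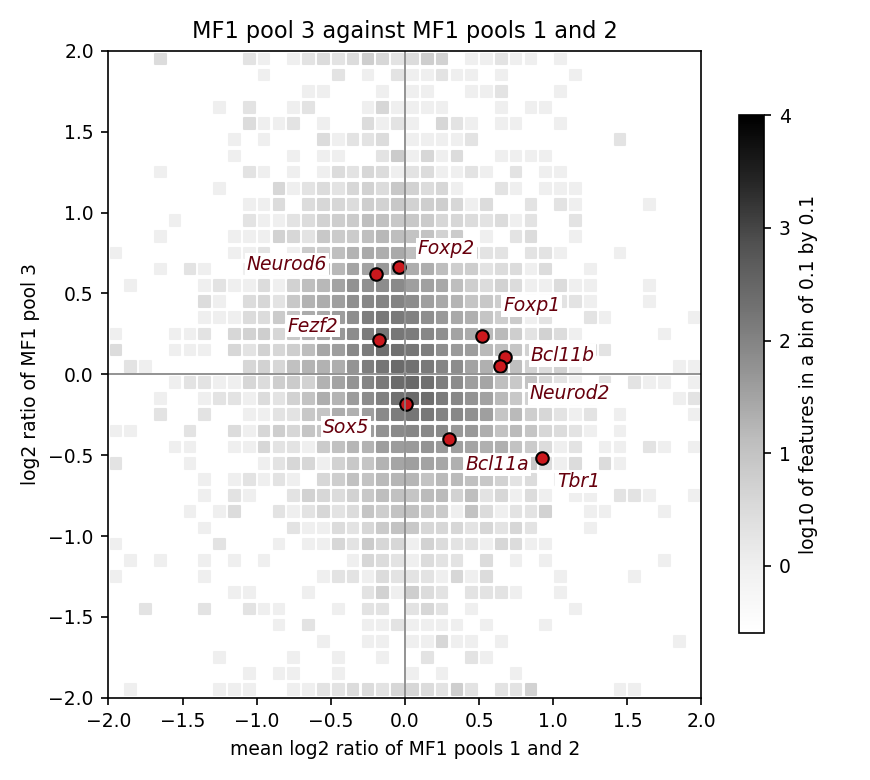
Log2 ratio of rostral over caudal in MF1 pool 3 (vertical axis) against the mean of MF1 pools 1 and 2 (horizontal axis). Grey squares count all features with a value in the 3 MF1 pools, in bins of 0.1 with values beyond 2 in size drawn at the edge. Red points are the 9 factors: Tbr1 and Bcl11a lie at the lower right, and Neurod6 and Fezf2 at the upper left. Foxp2 (above 0 in pool 3) and Sox5 (below 0) lie close to the vertical zero line, their signs in pools 1 and 2 being unlike.

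Between the strains, 0 of the 9 factors differed past the adjusted threshold (limma, adjusted p from 0.944 to 0.998), as did 0 of 14418 features, a background of 0%. At an unadjusted p under 0.05 there were also 0 of 9, against 6.1% of all features. The pools of MF1 and C57 overlapped for each of the 9 factors, while they did not overlap for 14% of features. The largest differences, C57 minus MF1, were -0.46 for Neurod2, with a 95% interval of -1.17 to 0.24, and 0.38 for Neurod6, with an interval of -0.33 to 1.08. Neurod2 averaged 0.45 ± 0.36 in MF1 and -0.018 ± 0.35 in C57, and Neurod6 0.078 ± 0.47 in MF1 and 0.45 ± 0.16 in C57 (SD, n = 3 pools each). Without MF1 pool 3 these differences were -0.66 (limma, unadjusted p = 0.0634, adjusted p = 0.674) and 0.65 (unadjusted p = 0.0278, adjusted p = 0.662). Other pools moved them the other way: that of Neurod2 was -0.31 without MF1 pool 1 (limma, unadjusted p = 0.388), and that of Neurod6 was 0.22 without MF1 pool 2 (limma, unadjusted p = 0.531). Each array held 1 strain, and missing readings made up on average 7.73% in MF1 and 14.6% in C57 of all probes, so a strain difference and a difference between these sets of arrays cannot be told apart.

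Within a strain, 0 of the 9 factors passed after adjustment in MF1 or in C57 (limma), and the background was 0% in each. At an unadjusted p under 0.05 there were 2 in MF1, Bcl11b at 0.49 ± 0.34 and Foxp1 at 0.43 ± 0.19, against 4.36% of features. In C57 there was 1, Foxp1 at 0.37 ± 0.14 (SD, n = 3 pools in each strain), against 9.71% of features in either direction and 4.23% higher. Tbr1 averaged 0.445 ± 0.94 in MF1 and 0.62 ± 0.44 in C57, and its MF1 mean was 0.93 without MF1 pool 3 and -0.013 without MF1 pool 1. Fezf2 averaged -0.046 ± 0.25 in MF1 and -0.37 ± 0.20 in C57, where it was below 0 in 3 of 3 pools. Foxp2 averaged 0.195 ± 0.44 in MF1 and 0.48 ± 0.36 in C57. The MF1 means of Fezf2, Foxp2, Bcl11a, Neurod2 and Neurod6 without MF1 pool 3 were -0.18, -0.040, 0.30, 0.64 and -0.19, from 2 pools each. Sox5 averaged -0.054 ± 0.20 in MF1 and -0.14 in C57, and Bcl11a 0.064 ± 0.46 and 0.045 ± 0.29.

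Other genes of cortical neurons did not share one direction. Of 35 further transcription factors of these neurons 26 were measured, 12 with a mean above 0 and 14 below, with a median of -0.052. At an unadjusted p under 0.05, 3 were higher and 3 lower rostrally, against 4.34% and 4.64% of all features, and 0 passed after adjustment. The ones of smallest p were Lhx2, which also acts in progenitors, at -0.50 ± 0.13, and the POU factor Pou3f2 at 0.43 ± 0.21 (SD, n = 6 pools). For each the adjusted p was above the threshold (limma). The sign of Lhx2 was part of the basis for the direction of the ratios, so it is not a separate result. Of 26 genes of neuronal structure and maturation 22 were measured, 10 above 0 and 12 below, with a median of -0.0065. Of these, 0 were higher and 2 lower rostrally at an unadjusted p under 0.05, against the same shares of all features, and 0 passed after adjustment. The 2 were Gpm6a, a membrane glycoprotein of growing axons, at -0.48 ± 0.24, and Mapt, the microtubule protein tau, at -0.28 ± 0.18 (SD, n = 6 pools). Both were below 0 in 6 of 6 pools, as 2.5% of features with 6 pools were. The median of these general neuronal genes was near that of all features. The part of the share of neurons in the ratios of Foxp1 and Bcl11b was not tested.

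Markers of progenitors and of other cells were read in the same pools. The counts above 0 given below stand beside 51.6% of all features with a mean above 0. The radial glia list had a median of 0.091 with 11 of 15 genes above 0, led by Hes5 (0.49 ± 0.50) and Pax6 (0.40 ± 0.18). The intermediate progenitor list had a median of 0.032 with 8 of 14 above 0, led by Rnd2 (0.35 ± 0.15) and Insm1 (0.31 ± 0.17). These 4 were above 0 in 6 of 6 pools (SD, n = 6 pools), as 3.47% of features with 6 pools were. Hes5 averaged 0.088 in MF1 and 0.89 in C57, and its strains did not overlap, as was so for 14% of features. Bcl11b, Foxp1 and Foxp2 are also genes of striatal neurons, so ventral and striatal markers were read beside them. Of that list 10 of 18 genes were above 0, with a median of 0.066 and pool medians from -0.17 in C57 pool 1 to 0.34 in C57 pool 2. Its genes of smallest p were Dlx5, a factor of ventral cells, at -0.63 ± 0.32 (SD, n = 6), and Ebf1, a striatal factor, at 0.60 ± 1.42 (SD, n = 4), which joined -0.61 in MF1 with 1.82 in C57.

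Of the Cajal-Retzius and subplate list 3 of 7 genes were above 0, with a median of -0.27. Its genes of smallest p were Cxcr4, a chemokine receptor, at -0.58 ± 0.59 (SD, n = 6) and Ebf2 at -0.23 ± 0.26 (SD, n = 5). The 3 above 0 were Reln (0.30 ± 0.43), Calb2 (0.155 ± 0.20) and Nxph4 (0.15 ± 0.38, SD, n = 6 each), so this list did not share one direction. Of the neighbouring and non-neural tissue list 3 of 14 were above 0, with a median of -0.080 and pool medians between -0.19 and -0.066. It was led by the collagen gene Col1a1 (-0.41 ± 0.64) and the choroid plexus channel Aqp1 (-0.61 ± 0.70, SD, n = 6 each). Col1a1 averaged 0.076 in MF1 and -0.89 in C57, and its strains did not overlap, as was so for 14% of features. In each of these lists 0 genes passed after adjustment (limma). At an unadjusted p under 0.05 the counts higher and lower rostrally were 2 and 0 for radial glia and 2 and 0 for intermediate progenitors. They were 1 and 1 for the ventral list, 0 and 1 for the Cajal-Retzius list and 0 and 3 for neighbouring tissue. Of all features 4.34% were higher and 4.64% lower at this threshold. The part of these cells in the ratios of the 9 factors was not tested.

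For each factor, the named gene closest in its 6 pool ratios was found by the root mean square difference among 8870 genes with 6 values. Foxp1 was closest to Rnd2, a GTPase of migrating neurons, with a difference of 0.081 against a median of 0.55 over all genes compared. Bcl11b was closest to Robo1, an axon guidance receptor (0.11 against 0.58), and Tbr1 to Nt5dc2 (0.12 against 0.898). Sox5 was closest to Hs2st1, a heparan sulphate sulphotransferase (0.063), Fezf2 to Aldh9a1 (0.069), Bcl11a to Chrnb1, a nicotinic receptor subunit (0.076), and Neurod6 to 4931440J10Rik (0.091). Neurod2 was closest to Trafd1 (0.12) and Foxp2 to Med7 (0.13). With 6 points and 8870 candidates some gene lies close to any pattern, so these names describe the values alone.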

How the data were processed

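The authors deposited 1 table of 21998 probes on 12 arrays of 6 pools. Its values are log2 ratios between the dyes, as read from the deposited values; the sources used here do not give the numerator, background correction, normalization or genome build. Spot signals were not used, so the number of arrays limits the precision. The table held 0 columns of other samples. RNA was a Trizol extract per the labels, and the design text says that SMART amplification of the cDNA was needed.

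The 701 values at the ceiling of 16.61 were set to missing, each array was centred on its median (from -0.41 to 0.475 before), and arrays with rostral RNA in Cy3 were turned, assuming Cy5 over Cy3. Deviations of both arrays of a pool, before turning, correlated between -0.30 and 0.0091, and below 0 in 5 of 6 pools. Both arrays were averaged per pool, the 2 orientations being required, then probes of a gene; a feature needed 2 pools per strain. Of the probes, 16864 had 1 symbol, 139 several (left unnamed) and 4995 none.

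The fit used limma 3.58.1 (R 4.3.3) with lmFit and eBayes, and gave each strain a mean, over 14418 features, with Benjamini-Hochberg adjustment at 0.05; the code was tested on simulated data. P-values reflect variation among these 6 pools only, which may be technical. Related genes were compared by an exact sign-flip permutation test. The 9 factors and the gene lists were chosen with earlier results of these data known. Named were each factor and probe, the 2 genes of smallest p in each other list, and the nearest gene to each factor, besides 4 genes of known gradient that set the direction (Nr2f1, Lhx2, Etv5, Spry2). Emx2 was named beside these 4 as a gene of known gradient that did not follow. The 3 Cajal-Retzius and subplate genes above 0 were named as well. Alternatives covered centring, scaling, the ceiling, dye orientation, missing values, probe choice, blocks and single pools.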

Additional observations from a re-analysis of the deposited data

Results flagged for a closer look

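Among 16 sets of 6 pool values checked, for the 9 factors, the probes of Bcl11a and Bcl11b and the 3 pairs, 2 held a pool whose gap to the nearest other pool was larger, relative to the whole range, than Dixon's 95% critical value. Chance alone marks about 1 set in 20. Sox5 was at 0.1795 in MF1 pool 1, while the other 5 pools lay between -0.18 and -0.14. The Bcl11b probe CG_Mm_3000752_1 was at -0.2075 in C57 pool 2, while the other 5 pools lay between 0.14 and 0.34.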

How the results depend on the processing

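Under the 16 alternatives, 0 of the 9 factors passed the adjusted threshold, for both strains or for the strain difference (limma). Of all features, for both strains, 11 higher and 10 lower of 14418 passed in the fit on 12 single arrays. With features complete on 12 arrays, 3 higher and 3 lower of 10517 passed, and in the other alternatives 0 did. Bcl11b, Foxp1, Tbr1, Neurod2, Neurod6 and Sox5 kept the sign of their mean over both strains in each alternative, with ranges of 0.14 to 0.52, 0.21 to 0.45, 0.30 to 0.77, 0.025 to 0.31, 0.077 to 0.34 and -0.29 to -0.067. Without centring, the 9 factors had a median of 0.0765 where all features had -0.18, and Bcl11a was at -0.13. In that setting 1 factor, Fezf2, had an unadjusted p under 0.05 in place of 2, against 15% of features. With rostral RNA in Cy5 alone Bcl11a was at -0.15, Fezf2 at 0.034 and Foxp2 at -0.25. With the probe of fewest missing values Bcl11a was at -0.017. In this last setting 1 factor, Foxp1, had an unadjusted p under 0.05, against 9.05% of features. Limma fitted to 12 single arrays, pools being random blocks (consensus correlation 0.24), gave 4 such factors, Bcl11b, Foxp1, Tbr1 and Neurod6, where 8.64% of features had one. That fit applied 1 correlation to all features. Where the 2 arrays of a pool agree more closely, as for Tbr1, it can count technical repeats as replicates. Leaving out 1 pool moved the mean of Bcl11a between -0.059 and 0.17, Foxp2 minus Foxp1 between -0.16 and 0.084, and Neurod6 minus Neurod2 between -0.11 and 0.24. Foxp2 minus Foxp1 was 0.57 with rostral RNA in Cy3 alone, and Neurod6 minus Neurod2 -0.072 with arrays scaled.

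The difference C57 minus MF1 changed sign for Bcl11a with arrays not centred (0.033) and with rostral RNA in Cy3 alone (0.42), for Bcl11b (0.094), Foxp1 (0.24), Foxp2 (-0.79) and Sox5 (0.089) with rostral RNA in Cy5 alone, and for Tbr1 with arrays scaled (-0.026). Leaving out 1 pool, it ran from -0.25 to 0.21 for Bcl11a, from -0.15 to 0.037 for Foxp1, from -0.15 to 0.027 for Sox5 and from -0.31 to 0.63 for Tbr1. Where a cause is not named, the cause was not tested; single orientations keep any dye effect by construction. With the pool number as a replicate block, the means stayed as they were. There 2 factors had an unadjusted p under 0.05 (limma, Foxp1 0.0348 and Bcl11b 0.0386), against 6.91% of features. Same-numbered pools of the strains deviated together at correlations of -0.11, 0.049 and 0.0021. The labels do not tie these pools to each other, and such correlations cannot tell whether they were handled together. No block could be fitted in the sign-flip tests, and the fits on 12 arrays and with the block were not run for those tests.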
